A study of Mus musculus with 39 samples.

Results

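The large intestine was set against the distal small intestine of the same animals: 7 C57BL/6J mice each gave 1 colon library and 1 ileum library, 14 of the 39 libraries of the series. C57BL/6J is an inbred laboratory strain, the labels name no treatment, and sex, age and housing are not given in the sources used here. Total RNA of bulk tissue was depleted of ribosomal RNA and sequenced, and levels are TPM, a share of all transcripts in a library after scaling for transcript length. The series also holds 6 BALB/cJ mice, an inbred strain used here only for the difference between strains, and duodenum/jejunum libraries, used only to check labels. TPM keeps no depth, so the number of reads behind a value is unknown. The test covered the 15819 of 34574 named entries that reached 1 TPM in 6 or more of these 14 libraries.

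Differences are colon minus ileum on the log2(TPM + 1) scale, so that 1 is a 2-fold change for a gene well above 1 TPM and less than the true change for a low gene. They are given ± limma's moderated standard error, which also draws on the spread of other genes. It comes from the fit to the 7 mice or from the other fit named. A gene is called higher or lower in colon where limma's paired test gave an adjusted p under 0.05 over all genes tested. Replicates are separate mice.

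The ileum digests and absorbs the last of the food, takes back bile acids for return to the liver and carries Paneth cells, which release antimicrobial peptides at the base of its crypts. The colon has no villi and usually no Paneth cells: it recovers salt and water, is lined with mucus from many goblet cells and burns short-chain fatty acids that its dense bacteria make from fibre. Position along the gut is held in part by transcription factors, among them the HOX proteins of the surrounding mesenchyme and GATA4 and HNF4 in the epithelium.

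The tissue labels were set against regional markers. The 13 colon epithelial markers tested, of 14 listed, summed to 5028 to 8882 TPM in the colon libraries and 207 to 303 TPM in the ileum libraries, without overlap. The ileal bile acid binding protein Fabp6 stood at 3766 to 8189 TPM (median 4792) in the ileum libraries of 6 mice, but at 22.1 TPM in the library labelled ileum of mouse 2. That library was at 51.2 TPM for Tmprss15, the duodenal protease enteropeptidase, and at 19.6 TPM for Onecut2, a factor of the duodenum, where the other 6 ileum libraries had at most 0.0304 TPM for Tmprss15 and 0.528 TPM for Onecut2. Over the 15819 genes its median correlation was 0.932 with the ileum libraries of the other mice and 0.956 with their duodenum/jejunum libraries, whereas the other 6 ileum libraries were at 0.974 to 0.98 and 0.95 to 0.964. The library labelled duodenum/jejunum of the same mouse stood apart too. It held 6111 TPM of Fabp6, where the duodenum/jejunum libraries of the other 6 mice had at most 32 TPM, and it correlated at 0.965 with the ileum and 0.966 with the duodenum/jejunum of the other mice. The duodenum/jejunum libraries of those 6 mice were at 0.951 to 0.967 and 0.974 to 0.977. An exchange of these libraries and a difference in where the tissue was taken cannot be told apart. Its summed smooth muscle markers were also the lowest of the 7, at 1022 TPM against 1491 to 3336 TPM in the others. The library labelled ileum of mouse 2 therefore goes against its label on regional markers, as does the one labelled duodenum/jejunum on Fabp6. Counts over all genes and several of the results that turn on mouse 2 are given with and without it. Other results are given with mouse 2 only, and the named genes for which it stood apart are listed with the flagged results.

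**Figure D1:**
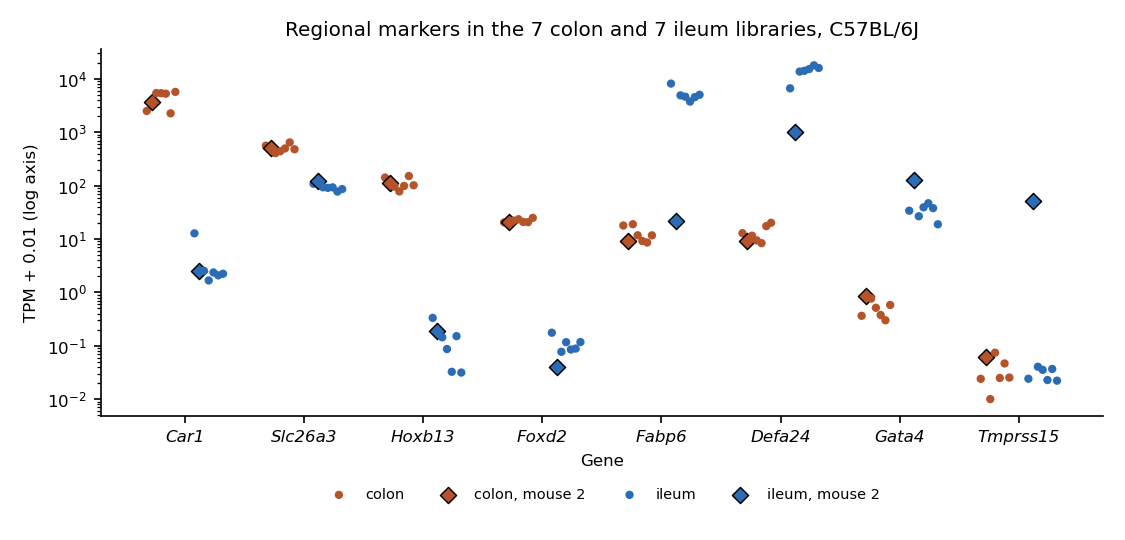
Levels of 8 regional marker genes in each library, in TPM on a log axis with 0.01 TPM added so that 0 can be shown. Colon libraries stand left of ileum libraries, each point is 1 mouse, and the diamonds mark mouse 2. The library labelled ileum of mouse 2 lies at 22.1 TPM for Fabp6 and 51.2 TPM for Tmprss15, away from the other 6.

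The tissues differed at most genes. Of the 15819 genes, 9972 (63%) were called, 7554 (47.8%) higher and 2418 (15.3%) lower in colon, and 1753 (11.1%) were higher and 1042 (6.59%) lower by 2-fold or more. Without mouse 2, 10211 of 15585 genes (65.5%) were called, 7643 (49%) higher and 2568 (16.5%) lower, and 9555 of the 9972 calls held in the same direction. The split between higher and lower moved with the scale. TPM divides each library by its own total, in which alpha-defensins took up to 12.2% of an ileum library. The median difference of all genes was 0.26. Where mitochondrial, defensin and antibody TPM were left out of the totals, the median was 0.15, with 5842 genes higher and 2979 lower. The cause of the shift was not tested. With median-of-ratios size factors that median was -0.01 and 8673 genes (54.8%) were called, 4333 (27.4%) higher and 4340 (27.4%) lower, while 2785 of the 2795 calls of 2-fold or more were still called in the same direction. Small differences are therefore read beside the shift of 0.26, and so are the median differences over the tested genes of each list, given in brackets after its counts. The counts of each list are read beside the shares over all genes, 47.8% higher and 15.3% lower. The 7 colon and 7 ileum libraries did not overlap at 6215 genes (39.3%), with colon above ileum at 4836 (30.6%) and below it at 1379 (8.72%). Fewer cells of a type and less RNA per cell cannot be told apart in bulk tissue.

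The genes furthest apart were of mixed kinds on the colon side and all alpha-defensins on the ileum side. Car1, a cytosolic carbonic anhydrase of colonocytes, stood at 2269 to 5725 TPM in the colon libraries (median 5298) and 1.67 to 12.8 TPM in the ileum libraries (median 2.35). No ileum library came near any colon library, and the difference was 10.01 ± 0.38 (adjusted p = 9.9e-08). Mptx1, a mucosal pentraxin, stood at 1495 to 4707 TPM in the colon libraries (median 2497) and 1.6 to 4.46 TPM in the ileum libraries (median 2.11), a difference of 9.54 ± 0.18. Both were among the 12 genes furthest up that reached a mean of 20 TPM, and the other 10 were Sycn (syncollin, first described in pancreatic granules), the water channel Aqp8, the transglutaminase Tgm3, the whey acidic protein Wfdc2, the goblet cell protein Retnlb, Sval1, the homeobox gene Hoxb13, the cytochrome P450 Cyp2d34, the peroxisomal oxidase Hao2 and the secreted matrix protein Nov. The differences of these 10 ran from 6.49 for Nov to 8.16 for Sycn. The rule also asked for no overlap between tissues, with or without mouse 2, so the lack of overlap of the 12 is no separate result. All 12 genes furthest down by the same rule were alpha-defensins, from -9.29 for Defa3 to -10.89 for Defa2.

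Of 28 genes of salt and water transport tested, 19 were higher, 6 lower and 3 not called (median 1.45). The chloride/bicarbonate exchanger Slc26a3 stood at 407 to 647 TPM in the colon libraries (median 499) and 77.5 to 123 TPM in the ileum libraries (median 93.1). Its relative Slc26a6 stood at 1.55 to 4.42 TPM in the colon libraries (median 2.75) and 155 to 378 TPM in the ileum libraries (median 202). The groups were apart for both, in opposite directions, with differences of 2.39 ± 0.11 for Slc26a3 and -5.83 ± 0.13 for Slc26a6. The 3 subunits of the epithelial sodium channel, through which aldosterone drives sodium recovery, were all higher. Scnn1a had medians of 45.2 TPM in colon and 3.95 TPM in ileum, a difference of 3.26 ± 0.11. Scnn1b had medians of 8.39 TPM in colon and 0.0653 TPM in ileum (3.05 ± 0.12), and Scnn1g had medians of 2.68 TPM in colon and 0.032 TPM in ileum (1.85 ± 0.11). Hsd11b2, which shields the aldosterone receptor from cortisol-like steroids, was higher by 4.31 ± 0.20, and the receptor itself, Nr3c2, by 1.49 ± 0.10. The pump regulator Fxyd4 (4.47 ± 0.15), the water channel Aqp4 (4.55 ± 0.14) and the goblet cell anion channel Best2 (4.53 ± 0.14) were higher too. Clca4b, a calcium-activated chloride channel regulator, ran the other way at 3.24 to 5.52 TPM in the colon libraries (median 4.1) and 744 to 1762 TPM in the ileum libraries (median 1300.0), and the aquaglyceroporin Aqp7 was lower (-2.46 ± 0.36). Among 17 claudin and tight junction genes with a test, 9 were higher, 2 lower and 6 not called (median 0.31), near the shares over all genes, and with size factors 4 were higher, 5 lower and 8 not called. Cldn8, a sealing claudin, stood at 38.5 to 70.9 TPM in the colon libraries (median 55.1) and 0.495 to 4.48 TPM in the ileum libraries (median 1.95), without overlap, whereas Cldn15, which forms sodium pores, was lower (-1.11 ± 0.12). Cldn7 was lower (-0.36 ± 0.08), and Cldn12 (0.97 ± 0.10) and Cldn23 (0.76 ± 0.14) were higher.

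Genes for burning short-chain fatty acids and making ketone bodies were higher in 14 of 16 tested, and none was lower (median 0.79), whereas with size factors 9 were higher, 1 lower and 6 not called (median 0.49). Acads, which oxidises butyryl-CoA, stood at 143 to 187 TPM in the colon libraries (median 151) and 42.4 to 58.9 TPM in the ileum libraries (median 50.4), a difference of 1.6 ± 0.06 (adjusted p = 8.9e-08) without overlap. The butyrate and lactate carrier Slc16a1 was higher by 2.02 ± 0.08 and the short-chain fatty acid receptor Ffar2 by 2.27 ± 0.18. Acsm3, an acyl-CoA synthetase of medium chain length, had medians of 130.0 TPM in colon and 6.22 TPM in ileum and was higher by 4.2 ± 0.20. The sodium-coupled carrier Slc5a8 was higher by 0.75 ± 0.25, and with size factors it was not called (0.44 ± 0.24). Without mouse 2 the difference was 0.47 ± 0.10, and without mouse 3 it was not called.

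Digestion and absorption of nutrients ran the other way. Of 23 genes of fat uptake and chylomicron assembly tested, 20 were lower, 2 higher and 1 not called (median -4.55). Apoa1, the main protein of high density lipoprotein, stood at 7.71 to 12.7 TPM in the colon libraries (median 9.84) and 3254 to 12189 TPM in the ileum libraries (median 5938). Mttp, which loads fat onto apolipoprotein B, stood at 2.41 to 3.16 TPM in the colon libraries (median 2.98) and 374 to 1705 TPM in the ileum libraries (median 584). Neither gene overlapped between tissues, and in both the library labelled ileum of mouse 2 was the highest. Their differences were -9.13 ± 0.20 for Apoa1 and -7.31 ± 0.24 for Mttp. Npc1l1, the carrier that takes up cholesterol, was lower (-7.14 ± 0.19), as was Tm6sf2, a lipoprotein assembly factor (-4.27 ± 0.11). The fatty acid binding protein Fabp1 stood at 4.18 to 5.64 TPM (median 4.51) in colon and 66 to 515 TPM (median 225) in the ileum of 6 mice, but at 6947 TPM in mouse 2, and its difference was -5.93 ± 0.66 with and -5.23 ± 0.37 without that mouse. The 2 genes higher in colon were Plin2, a lipid droplet coat protein (1.13 ± 0.08), and Scarb1, a lipoprotein receptor (1.03 ± 0.13).

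Of 14 genes of sugar digestion and transport tested, 13 were lower and 1 was not called (median -3.3). Without mouse 2, 13 were lower and 1 was not called (median -3.08). The list summed to 11468 TPM in the library labelled ileum of mouse 2 and 4220 to 5286 TPM in the other ileum libraries. Sucrase-isomaltase, Sis, stood at 3.18 to 16.6 TPM in the colon libraries (median 12.2) and 940.0 to 2145 TPM in the ileum libraries (median 1061). The glucose carrier Slc5a1 stood at 60.8 to 74.6 TPM in the colon libraries (median 68.7) and 391 to 1389.5 TPM in the ileum libraries (median 615). Both were below every ileum library in every colon library, with differences of -6.87 ± 0.28 for Sis and -3.17 ± 0.19 for Slc5a1. Mgam (maltase-glucoamylase) was lower (-2.88 ± 0.12), as was Tkfc, which phosphorylates products of fructose breakdown (-3.43 ± 0.15). Of 21 genes of peptide digestion and amino acid transport tested, 19 were lower and 2 not called (median -3.81). The brush border peptidase Anpep (aminopeptidase N) stood at 8.95 to 13.9 TPM in the colon libraries (median 10.3) and 1764 to 3599 TPM in the ileum libraries (median 2479), a difference of -7.72 ± 0.10 (adjusted p = 7.1e-10), and its relative Enpep was lower (-5.97 ± 0.08). Slc6a19, the main carrier of neutral amino acids, was lower (-7.0 ± 0.14).

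Vitamin and mineral uptake was split, with 13 of 21 genes tested lower, 3 higher and 5 not called (median -0.69). Without mouse 2, 14 were lower, 4 higher and 3 not called (median -0.71). The list summed to 7268 TPM in the library labelled ileum of mouse 2 and 1643 to 2712 TPM in the other ileum libraries. Cubn, which takes up the vitamin B12 complex in the ileum, stood at 0.501 to 4.97 TPM in the colon libraries (median 3.58) and 59.1 to 207 TPM in the ileum libraries (median 119). The phosphate carrier Slc34a2 stood at 23.4 to 48.9 TPM in the colon libraries (median 36.5) and 282 to 619 TPM in the ileum libraries (median 433). Both were lower without overlap, by differences of -5.0 ± 0.26 for Cubn and -3.53 ± 0.16 for Slc34a2. The 3 genes higher in colon with mouse 2 included were 2 of calcium uptake and 1 of iron export. S100g (calbindin D9k) stood at 19.4 to 389.9 TPM in the colon libraries (median 215) and 2.43 to 17.4 TPM in the ileum libraries (median 8.8). The calcium channel Trpv6 stood at 1.7 to 4.75 TPM in the colon libraries (median 3.15) and 0.0244 to 0.122 TPM in the ileum libraries (median 0.0583). The iron exporter Slc40a1 (ferroportin) stood at 101 to 163 TPM in the colon libraries (median 134) and 10.9 to 33.5 TPM in the ileum libraries (median 28.1). All were apart from ileum, with differences of 4.04 ± 0.45 for S100g, 2.0 ± 0.14 for Trpv6 and 2.43 ± 0.19 for Slc40a1.

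The small intestine makes citrulline from glutamine, and of 11 genes of that route and the urea cycle 8 were lower and 3 higher (median -1.48), and with size factors 8 were lower and 1 higher. Cps1, which makes carbamoyl phosphate, stood at 6.18 to 7.85 TPM in the colon libraries (median 7.16) and 194 to 279 TPM in the ileum libraries (median 272), and Otc, which makes citrulline, was lower (-2.53 ± 0.07). Prodh, which oxidises proline, was lower (-2.06 ± 0.10). The next steps ran the other way: Ass1, which turns citrulline into argininosuccinate, stood at 33.6 to 46.6 TPM in the colon libraries (median 39.5) and 2.37 to 14.3 TPM in the ileum libraries (median 10.6) and was higher by 1.99 ± 0.25. Asl, which follows it, was higher by 0.47 ± 0.12, and was not called with size factors (0.17 ± 0.11).

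Of 10 genes of bile acid handling tested, 5 were lower, 1 higher and 4 not called (median -1.83), and without mouse 2 the counts were 8 lower, 1 higher and 1 not called. Fabp6 stood at 8.6 to 18.9 TPM (median 11.7) in colon, below every ileum library, and its difference was -7.5 ± 0.87 with and -8.55 ± 0.11 without mouse 2. The basolateral exporter Slc51b was lower (-2.74 ± 0.28), as were the apical exporter Abcc2 (-5.36 ± 0.33) and the hormone gene Fgf15, which signals bile acid return to the liver (-3.66 ± 0.51). The apical bile acid carrier Slc10a2 stood at 9.46 to 86.9 TPM (median 70.8) in colon and 64.6 to 183 TPM (median 119.6) in the ileum of 6 mice, and at 4.1 TPM in mouse 2. Its ranges overlapped, and it was not called with mouse 2 (-0.93 ± 0.73, adjusted p = 0.29) but was lower without that mouse (-1.59 ± 0.54, adjusted p = 0.028). The basolateral exporter Abcc3 was higher in colon by 1.31 ± 0.12.

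Among 34 genes of drug and steroid metabolism tested, 11 were higher, 15 lower and 8 not called (median -0.16), and without mouse 2 16 were higher, 16 lower and 2 not called (median 0.03). The cytochrome P450 gene Cyp2c55 stood at 603 to 1424 TPM in the colon libraries (median 1189) and 4.92 to 138 TPM in the ileum libraries (median 18.9). The sulfotransferase Sult1a1 stood at 276 to 386 TPM in the colon libraries (median 311) and 5.32 to 13.7 TPM in the ileum libraries (median 6.65). Both were higher without overlap, by 5.6 ± 0.47 for Cyp2c55 and 5.29 ± 0.10 for Sult1a1. Another sulfotransferase, Sult1c2 (3.74 ± 0.16), and the carboxylesterase Ces1d (2.42 ± 0.17) were higher too. Cyp3a11, a main drug-oxidising P450, stood at 0.268 to 0.792 TPM (median 0.449) in colon, 8.11 to 82 TPM (median 46.7) in the ileum of 6 mice and 771 TPM in mouse 2, and was lower (-5.33 ± 0.59). Cyp4v3 (-3.97 ± 0.28), Cyp4f14 (-2.83 ± 0.17), which oxidise fatty acids and leukotrienes, and the cholesterol sulfotransferase Sult2b1 (-2.2 ± 0.09) were lower. Of 23 genes of cholesterol synthesis tested, 6 were higher, 4 lower and 13 not called (median 0.36). Without mouse 2 the counts were 11 higher, 5 lower and 7 not called, and with size factors 3 were higher and 4 lower. Among the late enzymes, Dhcr7 (0.97 ± 0.08) and Ebp (0.39 ± 0.07) were higher and Sc5d (-0.44 ± 0.07) and Hsd17b7 (-0.48 ± 0.10) lower, and the sterol sensor Insig1 was higher (0.81 ± 0.12). With size factors Ebp was not called (0.09 ± 0.07).

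Hox genes, the homeobox clusters that mark body position from head to tail, differed by their place in the cluster. Of 39 genes, 28 passed the filter, of which 23 were higher, 4 lower and 1 not called (median 1.27). The posterior genes of clusters A, B and D were near 0 in ileum. Hoxa13 stood at 25.6 to 35.9 TPM in the colon libraries (median 29.1) and 0 to 0.105 TPM in the ileum libraries (median 0.0452). Hoxb13 stood at 78 to 152 TPM in the colon libraries (median 102) and 0.0215 to 0.323 TPM in the ileum libraries (median 0.134). Hoxd13 stood at 7.65 to 16.2 TPM in the colon libraries (median 12.9) and 0 to 0.0651 TPM in the ileum libraries (median 0), and was listed at 0 in most of them. Hoxa10 had medians of 34.2 TPM in colon and 0.0361 TPM in ileum. No ileum library passed 0.323 TPM for any of these 4 genes, also in mouse 2, and their differences were 4.91 ± 0.09 for Hoxa13, 5.18 ± 0.11 for Hoxa10, 6.61 ± 0.11 for Hoxb13 and 3.74 ± 0.13 for Hoxd13. Genes nearer the head end of the clusters were present in both tissues and still differed, such as Hoxa3, at 11.2 to 16.7 TPM in the colon libraries (median 15.4) and 1.74 to 2.66 TPM in the ileum libraries (median 2.05), without overlap. Cluster C ran the other way. Hoxc8 stood at 0.332 to 0.607 TPM in the colon libraries (median 0.477) and 1.12 to 5.55 TPM in the ileum libraries (median 4.07), a difference of -1.66 ± 0.19, and Hoxc6 (-2.0 ± 0.30), Hoxc5 (-0.94 ± 0.10) and Hoxc4 (-0.72 ± 0.10) were lower as well. Hox genes of the gut wall are expressed mainly in mesenchyme, but Hoxb13 is also on the list of colon epithelial markers used to check the labels. Of 19 smooth muscle markers 18 were higher, summing to 7397 to 8996 TPM in the colon libraries and 1022 to 3336 TPM in the ileum libraries. The parts of muscle and of epithelium in the Hox levels were not tested.

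**Figure D2:**
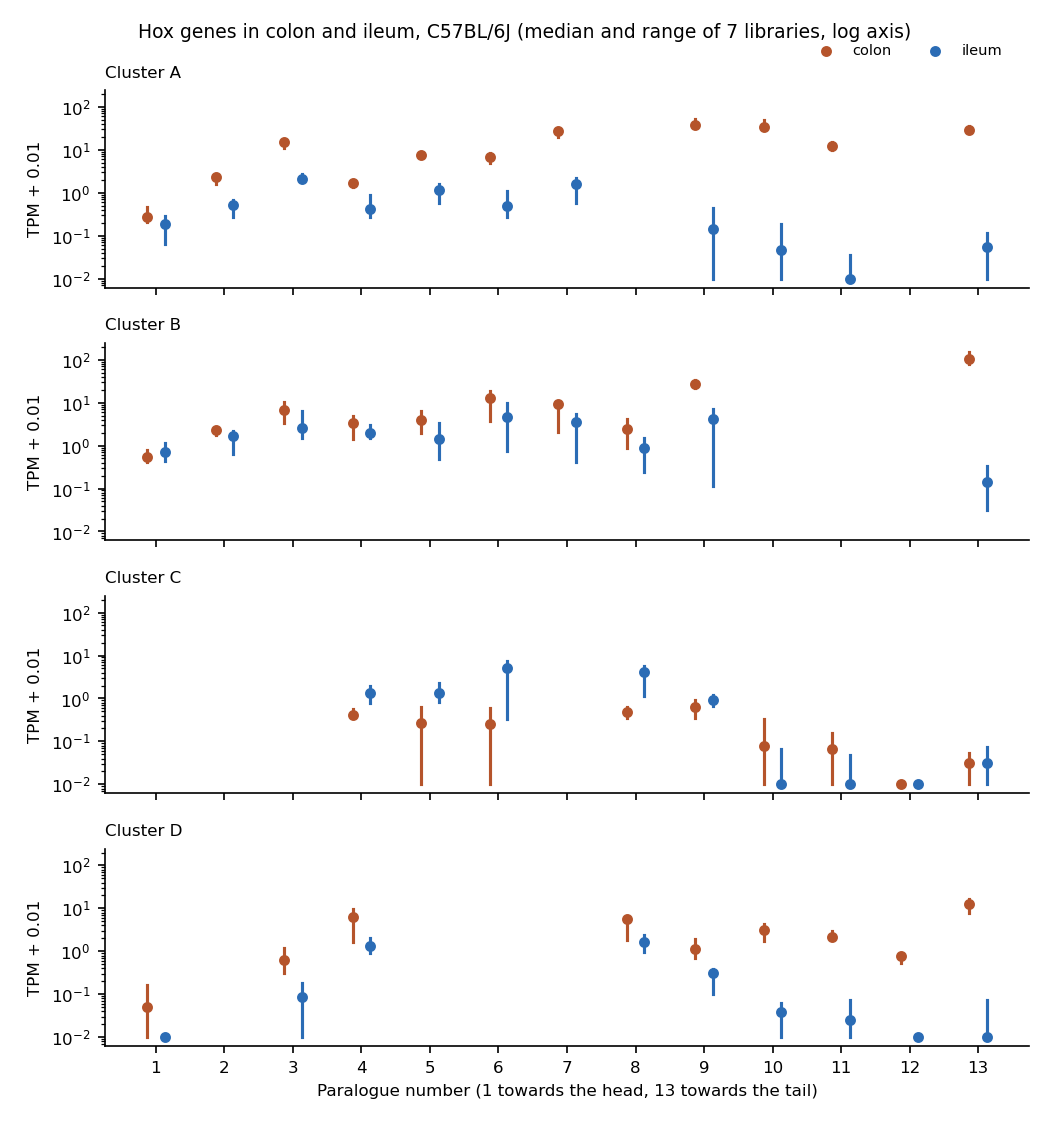
Median level of each Hox gene in the 7 colon and 7 ileum libraries of C57BL/6J mice, by cluster and paralogue number (1 towards the head, 13 towards the tail), in TPM on a log axis with 0.01 TPM added. Bars run from the lowest to the highest library. Genes 10 to 13 of clusters A, B and D are at most 0.323 TPM in every ileum library, with medians of 0.763 to 102 TPM in colon, and genes 4 to 8 of cluster C are lower in colon.

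Of 26 regional transcription factors tested, 13 were higher, 7 lower and 6 not called (median 0.30), and with size factors 10 were higher and 12 lower. Without size factors the part higher was near the 47.8% over all genes and the part lower above 15.3%. Foxd2, a forkhead factor, stood at 20.5 to 24.9 TPM in the colon libraries (median 21) and 0.0297 to 0.166 TPM in the ileum libraries (median 0.0785). Every colon library was above every ileum library, with a difference of 4.39 ± 0.08. Tfcp2l1 (3.01 ± 0.13), the lipid receptor Pparg (3.38 ± 0.21) and the caudal factor Cdx1 (1.23 ± 0.14) were higher too. Gata4, a factor of the small intestine, stood at 0.29 to 0.853 TPM in the colon libraries (median 0.505) and 18.9 to 129 TPM in the ileum libraries (median 37.9). Its relative Gata5 stood at 0.286 to 0.947 TPM in the colon libraries (median 0.51) and 30.7 to 39.7 TPM in the ileum libraries (median 34.3). Both were lower without overlap. Gata4 was highest in the library of mouse 2 (129 TPM) and Gata5 lowest there (30.7 TPM), and the differences were -4.75 ± 0.26 for Gata4 and -4.52 ± 0.11 for Gata5. Maf, a factor of mature villus cells, was lower (-3.51 ± 0.12). Of the 2 HNF4 genes, Hnf4g stood at 21.2 to 26.2 TPM in the colon libraries (median 24.2) and 128 to 388 TPM in the ileum libraries (median 190.3) and was lower (-2.97 ± 0.18), whereas Hnf4a, at 241 to 290.4 TPM in the colon libraries (median 265) and 267 to 347 TPM in the ileum libraries (median 297), was not called (-0.18 ± 0.08, adjusted p = 0.058) and was lower without mouse 2 (-0.22 ± 0.07). With size factors Hnf4a was called lower as well (-0.49).

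HNF4 proteins bind DNA at sites close to CAAAGTCCA, so that run of letters was looked for on both strands in the 250 bases before each start in RefSeq's promoter windows (GRCm38.p6). It was in 126 of 32851 windows (0.384%). Symbols matched a window for 10948 of the 15819 genes tested, under 80% of them, so a comparison of shares between gene groups is void and none is given. The windows of 3 brush border genes that hold the run are shown as far as their starts because their levels fell in colon, 5′ to 3′ on the gene's strand, with the run or its reverse complement in capitals: Alpi, an intestinal alkaline phosphatase (chr1:87101607-87101856, minus strand), Treh, which splits trehalose (chr9:44672983-44673232, plus strand), and Slc3a1, a subunit of the cystine carrier (chr17:85028097-85028346, plus strand).
Alpi: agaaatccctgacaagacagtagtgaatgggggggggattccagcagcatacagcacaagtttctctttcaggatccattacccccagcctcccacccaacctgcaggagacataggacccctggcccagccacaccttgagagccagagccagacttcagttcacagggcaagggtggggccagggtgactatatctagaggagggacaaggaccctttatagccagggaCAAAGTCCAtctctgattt
Treh: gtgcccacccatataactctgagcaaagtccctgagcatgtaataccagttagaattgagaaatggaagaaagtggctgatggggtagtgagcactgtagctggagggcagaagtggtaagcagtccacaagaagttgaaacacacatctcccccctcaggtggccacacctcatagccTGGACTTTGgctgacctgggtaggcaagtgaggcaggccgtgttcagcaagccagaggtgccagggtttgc
Slc3a1: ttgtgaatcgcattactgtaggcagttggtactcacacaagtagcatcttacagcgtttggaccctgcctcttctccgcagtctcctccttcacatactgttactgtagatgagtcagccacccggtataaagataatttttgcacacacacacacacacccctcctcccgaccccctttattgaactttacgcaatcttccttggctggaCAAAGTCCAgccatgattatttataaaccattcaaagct
Alpi stood at 7.75 to 13 TPM in the colon libraries (median 10.1) and 141 to 738 TPM in the ileum libraries (median 226). Treh stood at 0.36 to 1.01 TPM in the colon libraries (median 0.442) and 38.5 to 355 TPM in the ileum libraries (median 62.9). Slc3a1 stood at 12.6 to 28.9 TPM in the colon libraries (median 26) and 156 to 277 TPM in the ileum libraries (median 213). All 3 were lower in every colon library than in any ileum library, with differences of -4.48 ± 0.26 for Alpi, -5.61 ± 0.34 for Treh and -3.28 ± 0.22 for Slc3a1. They were chosen for being lower in colon, so their direction is no separate result. For Treh, mouse 2 stood at -7.98 and the other mice at -5.56 to -4.78. A match describes the letters of the window and shows neither binding nor its absence. Trpv6, Fhl1 and Cyp2c69, which were higher in colon, hold the run too.

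Paneth cell products were lower in colon. The 22 alpha-defensin genes, small antibiotic peptides of Paneth cell granules, summed to 40.9 to 99.5 TPM in the colon libraries (median 71), 43874 to 121102 TPM in the ileum libraries of 6 mice and 4117 TPM in mouse 2. All 20 that passed the filter were lower, with and without mouse 2 and with size factors. The 3 most abundant were Defa20, Defa24 and Defa32. Defa24 stood at 8.35 to 20.1 TPM (median 11.5) in colon, 6673 to 18035 TPM (median 14794) in the ileum of 6 mice and 1024 TPM in mouse 2, and its difference was -9.46 ± 0.43 with and -9.94 ± 0.20 without that mouse. The genes are near-identical copies, so how reads were divided among them is uncertain for single members. Of 13 further Paneth cell genes tested, 10 were lower, 1 higher and 2 not called (median -3.65). The lysozyme Lyz1 stood at 8.3 to 13.3 TPM (median 11.9) in colon, 2947 to 7007 TPM (median 6736) in the ileum of 6 mice and 473 TPM in mouse 2, a difference of -8.41 ± 0.45. The lectin Itln1 (-7.51 ± 0.48) and the C-type lectin Reg3a (-5.39 ± 0.23) were lower as well, and the bacterial sensor Nod2 was higher (0.45 ± 0.09).

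**Figure D3:**
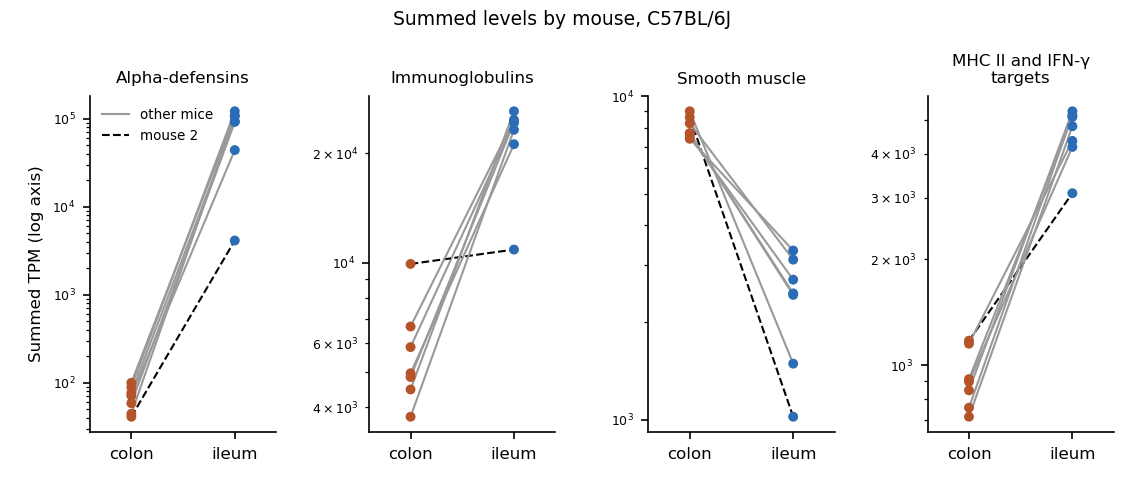
Summed TPM of the 22 alpha-defensin genes, the immunoglobulin genes, the smooth muscle markers and the MHC class II and interferon-gamma target list in each C57BL/6J mouse, on log axes, with colon left and ileum right and a line joining the libraries of a mouse. Mouse 2 is drawn dashed. Its library labelled ileum holds 4117 TPM of defensins and 1022 TPM of smooth muscle markers, the lowest ileum value in both.

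Goblet cell genes were higher in 16 of 20 tested, and 4 were not called (median 1.92), with 2 lower under size factors. Muc2, the gel-forming mucin of the mucus layer, stood at 7280.3 to 14765 TPM in the colon libraries (median 12990.2) and 752 to 2091 TPM in the ileum libraries (median 1541), a difference of 2.98 ± 0.15 without overlap. Spdef, a goblet cell maturation factor, was higher by 2.69 ± 0.17, the secretory factor Creb3l1 by 3.14 ± 0.12, the tissue kallikrein Klk1 by 4.42 ± 0.25 and Retnlb, a bactericidal goblet cell protein, by 6.82 ± 0.34. Zg16, a lectin of goblet granules, had medians of 7115 TPM in colon and 6221 TPM in ileum and was not called (0.45 ± 0.21, adjusted p = 0.098). Of 34 enzymes that build the sugar chains of mucins, 25 were higher, 5 lower and 4 not called (median 1.44). The sialyltransferase St6galnac6 stood at 402 to 526 TPM in the colon libraries (median 419) and 2.23 to 8.52 TPM in the ileum libraries (median 4.91), a difference of 6.29 ± 0.13, the galactosyltransferase B3galt5 was higher by 5.14 ± 0.16, the sialyltransferase St3gal3 by 3.7 ± 0.11, and B3gnt6, which starts core 3 chains, by 3.65 ± 0.13. The lower enzymes included St3gal4, at 202 to 286 TPM in the colon libraries (median 223) and 1101 to 1834 TPM in the ileum libraries (median 1213), the core 2 enzyme Gcnt4 (-3.03 ± 0.15) and the sulfotransferase Gal3st2 (-2.19 ± 0.12). Membrane-bound mucins, Ceacam and brush border adhesion genes divided evenly, 8 of 16 higher and 8 lower (median 0.18, and -0.03 with size factors). Muc4 (1.98 ± 0.11), Muc1 (2.07 ± 0.15) and Muc3a (1.64 ± 0.12), which hold mucin on the cell surface, were higher, and Vil1 (villin, -1.93 ± 0.12), the motor Myo7b (-0.90 ± 0.14) and Ceacam18 (-2.05 ± 0.24) lower.

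Antimicrobial and oxidant genes of the epithelium divided between the tissues, with 13 of 27 tested higher, 9 lower and 5 not called (median 0.45). The part higher was near the 47.8% over all genes and the part lower above 15.3%. Of the 2 mucosal pentraxins, Mptx1 was higher, as given above, and Mptx2 stood at 0.384 to 1.34 TPM (median 0.915) in colon, 361 to 1178 TPM (median 926) in the ileum of 6 mice and 33.2 TPM in mouse 2, a difference of -8.08 ± 0.53. Reg3g, a lectin that kills Gram-positive bacteria, stood at 24 to 426 TPM in the colon libraries (median 66) and 1473 to 16654 TPM in the ileum libraries (median 11776), without overlap, and was lower (-6.62 ± 0.35). Among oxidant enzymes, Nos2 (inducible nitric oxide synthase) stood at 0.353 to 1.75 TPM in the colon libraries (median 0.51) and 19.4 to 211 TPM in the ileum libraries (median 129) and was lower (-5.89 ± 0.35), without overlap. The hydrogen peroxide source Duox2 was also lower (-1.28 ± 0.24). Nox1, another oxidase (2.51 ± 0.27), and lactoperoxidase, Lpo (3.72 ± 0.09), were higher. Gasdermins, which open pores in membranes, were split, with 4 of 6 tested higher and 2 lower (median 2.47). Gsdmc4 stood at 463 to 650.4 TPM in the colon libraries (median 587) and 14.1 to 76.1 TPM in the ileum libraries (median 62), and Gsdmc2 (3.01 ± 0.24), Gsdmc3 (3.03 ± 0.33) and Gsdmc (1.92 ± 0.11) were higher with it. Gsdmd, the pore of inflammasome signalling, stood at 68.8 to 85.8 TPM in the colon libraries (median 77.8) and 119 to 329 TPM in the ileum libraries (median 163) and was lower (-1.17 ± 0.14). Gsdma2, a low gene with medians of 1.65 TPM in colon and 2.76 TPM in ileum, was lower (-0.74 ± 0.20).

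**Figure D4:**
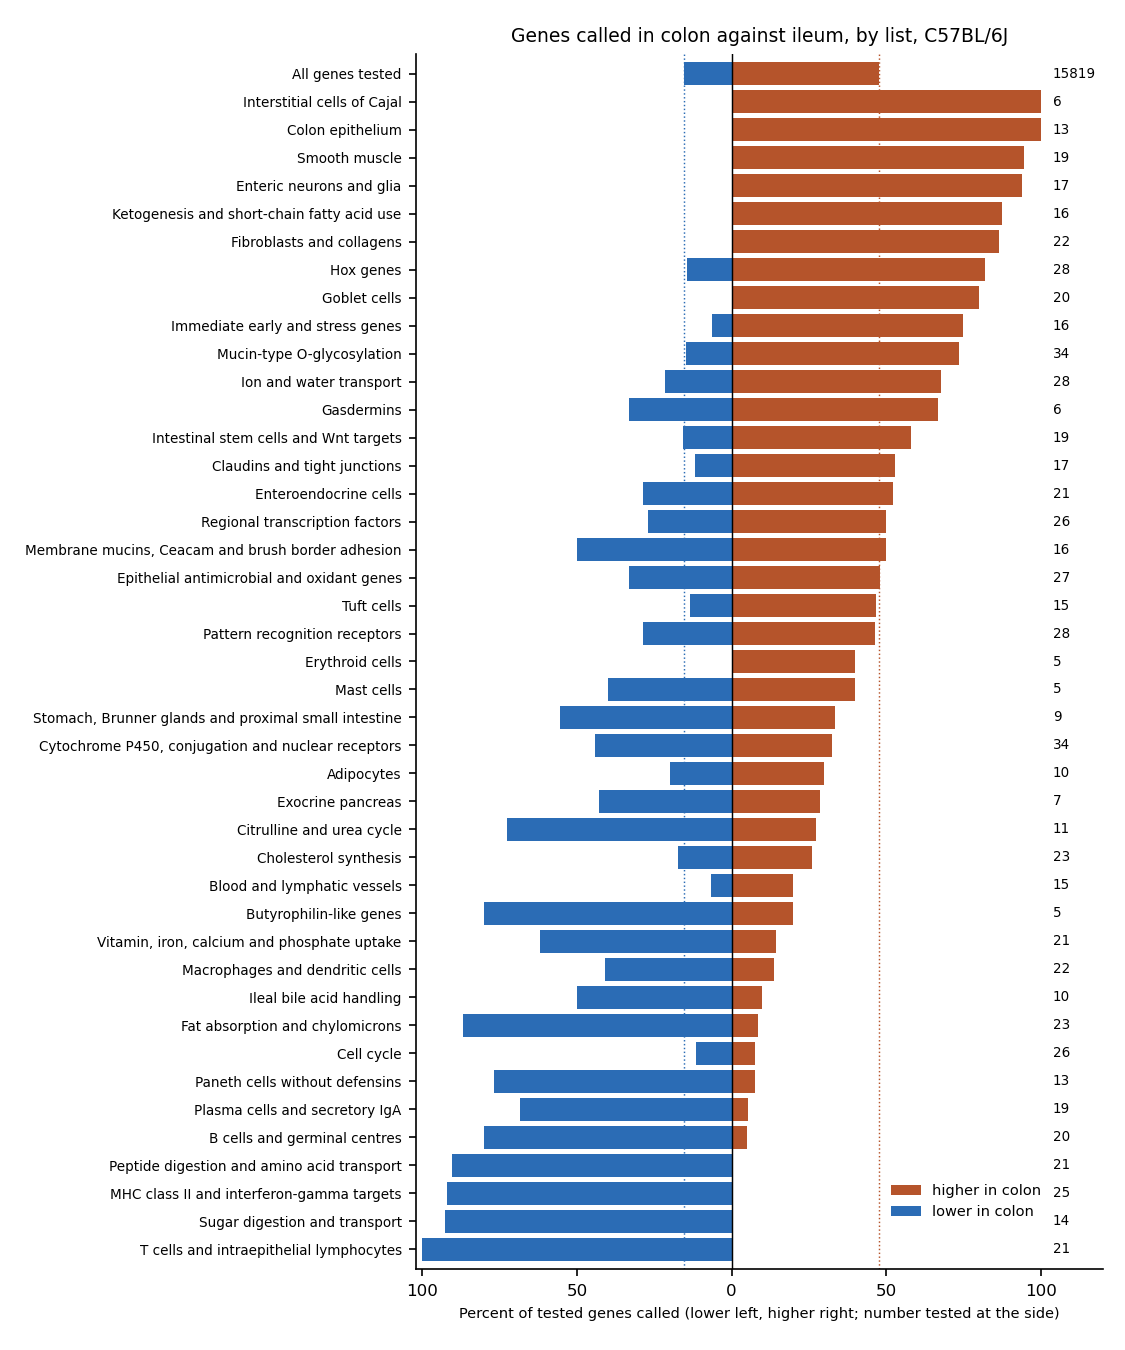
Share of the tested genes of each list that were called higher (right) or lower (left) in colon, in percent, with all 15819 genes in the top row. The figures at the side give the number tested. The absorptive and Paneth lists lie left and the mucin, muscle and neuron lists right of the shares over all genes, 47.8% higher and 15.3% lower.

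Of 21 enteroendocrine genes with a test, 11 were higher, 6 lower and 4 not called (median 0.41). The part higher was near the 47.8% over all genes and the part lower above 15.3%. Insl5, a hormone of the distal gut, stood at 73.6 to 176 TPM in the colon libraries (median 98.1) and 0 to 1.01 TPM in the ileum libraries (median 0.301). Pyy, an appetite hormone of the distal gut, stood at 149.6 to 211 TPM (median 176) in colon, 23.2 to 43.7 TPM (median 33.1) in the ileum of 6 mice and 3.37 TPM in mouse 2. Both were above every ileum library in every colon library, by 6.33 ± 0.23 for Insl5 and 2.79 ± 0.38 for Pyy. Tph1, which makes serotonin, was higher by 2.26 ± 0.15 and the granule protein Chgb by 1.47 ± 0.06. Gip, a hormone of the upper gut, stood at 0 to 0.305 TPM in the colon libraries (median 0.164) and 20.9 to 94.3 TPM in the ileum libraries (median 31), the highest being mouse 2, and was lower (-4.85 ± 0.26). Ghrl (ghrelin, -1.48 ± 0.21) and Cck (cholecystokinin, -1.33 ± 0.29) were lower. Of 15 tuft cell genes with a test, 7 were higher, 2 lower and 6 not called (median 0.32), near the shares over all genes, 47.8% higher and 15.3% lower. With size factors 3 were higher, 3 lower and 9 not called. Dclk1, a tuft cell kinase, was higher (1.46 ± 0.15), as were the taste G protein Gnat3 (1.28 ± 0.15) and Hpgds, which makes prostaglandin D2 (0.67 ± 0.12). The phospholipase Plcb2 was lower (-0.65 ± 0.10). The interleukin 25 receptor subunit Il17rb was lower (-0.25 ± 0.10), a call that was lost without any 1 of the 7 mice, as without mouse 2 (-0.25 ± 0.10).

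Stem cell and Wnt target genes were 11 of 19 higher, 3 lower and 5 not called (median 0.73). Beside the shares over all genes, the part higher was somewhat above 47.8% and the part lower near 15.3%. The number lower was 5 without mouse 2 and 6 with size factors. Olfm4, a marker of small intestinal stem cells, stood at 0.26 to 0.576 TPM in the colon libraries (median 0.349) and 134 to 309 TPM in the ileum libraries (median 240.1), so that it was close to 0 in every colon library, and its difference was -7.37 ± 0.14. Lgr5, the receptor that marks crypt base stem cells of both tissues, had medians of 6.91 TPM in colon and 7.66 TPM in ileum and was not called (-0.27 ± 0.13, adjusted p = 0.087), but was lower without mouse 2 (-0.35 ± 0.12). With size factors Lgr5 was called lower too (-0.54). Axin2, a Wnt feedback gene (-0.99 ± 0.13), and Msi1, an RNA-binding protein of progenitors (-0.88 ± 0.18), were lower. The crypt factor Sox9 (1.86 ± 0.11), the progenitor surface protein Prom1 (1.82 ± 0.13) and the BMP coreceptor Rgmb (1.04 ± 0.10) were higher. Of 26 cell cycle genes, 21 were not called, 2 were higher and 3 lower (median 0.05). The proliferation marker Mki67 had medians of 71.4 TPM in colon and 64.1 TPM in ileum, and its difference was 0.24 ± 0.10 (adjusted p = 0.076). The mitotic kinase Plk1 (0.75 ± 0.16) and the nucleotide enzyme Tyms (0.42 ± 0.14) were higher, Tyms not with size factors (0.12 ± 0.12), and the replication genes Mcm2 (-0.59 ± 0.15), Mcm3 (-0.40 ± 0.14) and Rrm2 (-0.49 ± 0.15) lower. The calls of Tyms, Mcm3 and Rrm2 were lost without some single mice. The library labelled ileum of mouse 2 had the lowest ileal sum of the list, 533 TPM, and without it 7 were lower and 2 higher. With size factors 7 were lower and 1 higher.

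Lymphocyte genes were lower in colon. All 21 genes of T cells and intraepithelial lymphocytes that were tested, of 27 listed, were called lower (median -1.65), where 15.3% of all genes were. Cd3g, a chain of the T cell receptor complex, stood at 1.23 to 3.1 TPM in the colon libraries (median 2.27) and 11.7 to 17.9 TPM in the ileum libraries (median 14.5), without overlap, a difference of -2.25 ± 0.13 (adjusted p = 1.1e-06). Ccl25, the epithelial chemokine that draws T cells into the small intestine through CCR9, stood at 14.5 to 21.5 TPM in the colon libraries (median 16.4) and 542 to 868 TPM in the ileum libraries (median 635) and was lower (-5.15 ± 0.08). Its receptor Ccr9 was lower (-1.65 ± 0.11), as were the chemokine Ccl5 (-3.4 ± 0.18) and Itgae, the integrin that holds lymphocytes to epithelium (-1.72 ± 0.11). Butyrophilin-like genes of the epithelium, which maintain gamma-delta intraepithelial lymphocytes, were lower in 4 of 5 tested (median -2.04). Btnl2 stood at 1.41 to 2.9 TPM in the colon libraries (median 2.32) and 31.2 to 118 TPM in the ileum libraries (median 47.7) and was lower (-3.99 ± 0.21). Btnl1 (-2.09 ± 0.20) and Btnl6 (-2.04 ± 0.14) were lower, and Btn1a1, of milk fat, was higher (1.33 ± 0.12) at a low level.

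Of 20 genes of B cells and germinal centres tested, 16 were lower, 1 higher and 3 not called (median -1.28). Cd22, an inhibitory receptor of B cells, stood at 2.87 to 5.43 TPM in the colon libraries (median 4.64) and 11.1 to 39.4 TPM in the ileum libraries (median 19.4) and was lower (-1.98 ± 0.20). Blnk, an adaptor of B cell signalling, went the other way at 55 to 62.3 TPM in the colon libraries (median 56.8) and 14 to 17.1 TPM in the ileum libraries (median 16.2), higher by 1.81 ± 0.06. Of 19 plasma cell and secretory IgA genes tested, 13 were lower, 1 higher and 5 not called (median -1.26), and without mouse 2 16 were lower. Igha, the heavy chain of IgA, stood at 877 to 2071 TPM in the colon libraries (median 1152) and 3129 to 5897 TPM in the ileum libraries (median 5607) and was lower (-2.06 ± 0.23), as were the secretory quality control gene Derl3 (-1.26 ± 0.14) and Prdm1, the plasma cell factor (-1.3 ± 0.15). Sdc1, a plasma cell marker that epithelium also makes, was higher by 1.03 ± 0.15. The 393 antibody gene entries summed to 3767 to 9912 TPM in colon and 10857 to 26061 TPM in ileum, and of 192 tested 122 were lower, none higher and 70 not called. Mouse 2 had both the highest colon sum and the lowest ileum sum. The 3 most abundant were Igha, the light chain Igkc (-1.99 ± 0.32) and the segment Ighv1-26 (-2.37 ± 0.37). Mouse 2 differed by -0.59 for Igha and 0.17 for Igkc. The other mice differed by -2.61 to -2.06 and by -2.68 to -2.0. Pigr, which carries IgA across the epithelium, had medians of 1603 TPM in colon and 1555 TPM in ileum and was not called (0.13 ± 0.11, adjusted p = 0.34). The B cell list summed to 101 to 137 TPM in the colon libraries and 92 to 313 TPM in the ileum libraries, and whether a sample held a lymphoid follicle was not tested.

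MHC class II and interferon-gamma target genes were lower in 23 of 25 (median -1.97), and the other 2, Gbp2 (-0.25 ± 0.26) and Irgm1 (-0.46 ± 0.19), were lower without mouse 2 (-0.51 ± 0.17 for Gbp2 and -0.64 ± 0.12 for Irgm1). Irgm1 was also called lower with size factors (-0.75). Cd74, the class II invariant chain, stood at 168 to 343 TPM in the colon libraries (median 225) and 1125 to 1931 TPM in the ileum libraries (median 1748), the lowest ileum library being that of mouse 2, and was lower (-2.82 ± 0.20). H2-DMb1, which loads peptide, was lower (-3.05 ± 0.19), as were the class II activator Ciita (-2.21 ± 0.20), Psmb9 of the immunoproteasome (-2.03 ± 0.11) and the guanylate-binding protein Gbp8 (-1.92 ± 0.12). Of 22 macrophage and dendritic cell genes tested, 9 were lower, 3 higher and 10 not called (median -0.33). The integrins Itgax (-1.19 ± 0.15) and Itgam (-1.45 ± 0.23) and the dendritic cell factor Batf3 (-0.86 ± 0.13) were lower, and Cd14, a coreceptor for lipopolysaccharide, was higher (1.77 ± 0.17), as were the scavenger receptors Mrc1 (0.88 ± 0.21) and Cd163 (0.88 ± 0.24). Of 5 mast cell genes tested, the mucosal proteases Mcpt1 (-1.4 ± 0.23) and Mcpt2 (-0.90 ± 0.20) were lower, the connective tissue chymase Cma1 (1.55 ± 0.12) and the receptor Kit (2.45 ± 0.21) higher, and 1 was not called. Kit is also on the list of interstitial cells of Cajal given below, so its call is not particular to mast cells.

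Bacterial sensors differed by receptor, 13 of 28 tested being higher, 8 lower and 7 not called (median 0.19), and with size factors 10 were higher and 12 lower (median -0.06). Without size factors the part higher was near the 47.8% over all genes and the part lower above 15.3%. Tlr4, the lipopolysaccharide receptor, stood at 24.5 to 31.6 TPM in the colon libraries (median 28.9) and 1.58 to 4.78 TPM in the ileum libraries (median 3.77), higher by 2.69 ± 0.13. The DNA sensor Aim2 stood at 72.4 to 90.4 TPM in the colon libraries (median 82.5) and 13 to 23.8 TPM in the ileum libraries (median 16), higher by 2.11 ± 0.14. Of the flagellin and type III secretion sensors, Naip5 stood at 25.4 to 29.6 TPM in the colon libraries (median 28) and 57.2 to 94.4 TPM in the ileum libraries (median 77.1) and was lower (-1.37 ± 0.10), as were Naip6 (-0.92 ± 0.12) and their common partner Nlrc4 (-0.93 ± 0.07). Naip1 (0.79 ± 0.07) and Naip2 (0.37 ± 0.07) were higher, Naip2 not with size factors (0.07 ± 0.07). Tlr12, a receptor for profilin, was lower (-1.24 ± 0.11). The Naip genes are near copies of each other, and how reads were divided among them was not tested.

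Genes of the muscle and nerves of the wall were higher in colon, 18 of 19 for smooth muscle, with 1 not called (median 1.76). The summed smooth muscle levels given with the Hox genes did not overlap between tissues. Tagln, an actin-binding protein of smooth muscle, stood at 879 to 1037 TPM in the colon libraries (median 909.8) and 47.7 to 268 TPM in the ileum libraries (median 192), with mouse 2 lowest in ileum, and was higher by 2.54 ± 0.29 with and 2.24 ± 0.17 without that mouse. Smtn (smoothelin) was higher by 1.54 ± 0.14 and Tpm1 (tropomyosin) by 1.14 ± 0.11. Enteric neuron and glia genes were higher in 16 of 17 tested (median 1.02), among them Snap25 of synapses (1.17 ± 0.14) and S100b of glia (0.91 ± 0.11). All 6 tested genes of interstitial cells of Cajal, the pacemakers of the gut, were higher (median 1.77). Their chloride channel Ano1 stood at 124 to 161 TPM in the colon libraries (median 146) and 5.6 to 11.2 TPM in the ileum libraries (median 7.25), a difference of 4.0 ± 0.13, and Thbs4, a matrix protein, was higher by 5.62 ± 0.15. Fibroblast and collagen genes were higher in 19 of 22, and 3 were not called (median 0.78), with Fn1 (fibronectin, 1.44 ± 0.18), Col5a1 (1.18 ± 0.22) and Col15a1 (0.83 ± 0.16) as examples. With size factors 12 of the 22 were higher. Vessel genes were mostly not called, 11 of 15, with 3 higher and 1 lower (median 0.18), and with size factors 1 was higher and 5 were lower (median -0.04). The endothelial receptor Tek (0.63 ± 0.13), the lymphatic marker Lyve1 (0.76 ± 0.22) and Cldn5 (0.57 ± 0.17) were higher, the last 2 not with size factors, and Madcam1, the homing address of gut lymphocytes, was lower (-1.08 ± 0.19).

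Markers of tissues outside the wall did not move together. Of 10 adipocyte genes with a test, 3 were higher, 2 lower and 5 not called (median 0.37). Adipoq, which defines fat cells, stood at 1.55 to 10.2 TPM in the colon libraries (median 5.57) and 0.259 to 8.95 TPM in the ileum libraries (median 6.88), overlapping and not called (0.40 ± 0.38, adjusted p = 0.38), and without mouse 2 its difference was -0.01 ± 0.20. The lipid droplet genes Plin4 (1.11 ± 0.24) and Cidec (-1.77 ± 0.29), the carbonic anhydrase Car3 (0.94 ± 0.35) and the lipase Lipe (-2.33 ± 0.14) were called with Pparg, Car3 neither with size factors (0.67 ± 0.34) nor without some single mice, and at 0.55 ± 0.17 without mouse 2. Of 19 exocrine pancreas genes 7 passed the filter, 2 higher, 3 lower and 2 not called (median -0.20). The elastase Cela1 stood at 125 to 245 TPM in the colon libraries (median 165) and 4.0 to 5.89 TPM in the ileum libraries (median 4.12), higher by 4.96 ± 0.13 without overlap, while Cpa1, Ctrb1, Pnlip and Prss2, which define pancreatic acinar cells, reached at most 1.48, 3.29, 0.992 and 0.772 TPM in any colon library. The ribonuclease Rnase1 (-2.01 ± 0.20), the protease Ctrl (-0.84 ± 0.18) and colipase, Clps (-1.47 ± 0.44), were lower. In the family of pancreatic enzymes chosen by symbol, the most abundant included Cela1 and Ctrc (medians of 14.2 TPM in colon and 16.7 TPM in ileum), and of 5 tested 2 were higher and 1 lower. Of 5 erythroid genes with a test, 2 were higher, the haemoglobins Hbb-bs (0.41 ± 0.08) and Hba-a2 (0.36 ± 0.12), and 3 were not called, and with size factors none was called (median 0.36). Of 21 genes of stomach and proximal small intestine 9 passed the filter, 3 higher, 5 lower and 1 not called (median -1.33), with Lct (lactase, -6.74 ± 0.47) lower and the trefoil peptide Tff2 (0.85 ± 0.13) higher. Without mouse 2, 3 were higher and 6 lower (median -1.01). That list summed to 8536 TPM in the library labelled ileum of mouse 2 and 194 to 870.5 TPM in the other ileum libraries. Immediate early and stress genes were higher in 12 of 16 tested, lower in 1 and not called in 3 (median 0.54), with the small heat shock protein Hspb1 (2.5 ± 0.28), the phosphatase Dusp1 (0.91 ± 0.08) and the early response gene Ier2 (0.65 ± 0.07) higher and Zfp36, which degrades cytokine messages, lower (-0.82 ± 0.14). Fos, an early response factor, had medians of 71.6 TPM in colon and 69.2 TPM in ileum and was not called (0.06 ± 0.14, adjusted p = 0.74), and with size factors 7 of the 16 were higher and 3 lower.

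Abundant families take part of the total that TPM divides by. The 13 mitochondrially encoded genes took 3.93 to 4.6% of TPM in colon and 2.34 to 7.93% in ileum, the highest being mouse 2. Of 12 tested, 2 were higher, 9 without mouse 2 and 0 with size factors, and the most abundant were mt-Co1 (0.62 ± 0.26), mt-Atp6 (0.48 ± 0.26) and mt-Co3 (0.61 ± 0.15). Without mouse 2 both mt-Co1 (0.85 ± 0.09) and mt-Atp6 (0.75 ± 0.07), not called with it, were higher. Ribosomal protein genes took 8.94 to 10.7% of TPM in colon and 3.71 to 8.35% in ileum. These were 360 entries chosen by symbol, and whether some are copies or pseudogenes of others was not examined. Of 144 tested, 83 were higher and 6 lower, but with size factors 16 and 15, and the most abundant were Rps27 (0.70 ± 0.17), Rpl41 (0.53 ± 0.13) and Rpl18 (0.80 ± 0.18). Of 46 replication-dependent histone genes tested, 7 were higher and 0 lower with mouse 2, and 6 higher and 13 lower without it. The most abundant were Hist1h4m (0.15 ± 0.24), Hist1h2bf (-0.15 ± 0.21) and Hist2h2aa1 (0.01 ± 0.18). Of these, Hist1h2bf was lower without mouse 2 (-0.38 ± 0.10), Hist1h4m was at -0.11 ± 0.11 and Hist2h2aa1 at -0.14 ± 0.14.

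The change between tissues was also compared between strains, in 26 libraries from 7 C57BL/6J and 6 BALB/cJ mice. The difference between strains is the C57BL/6J change minus the BALB/cJ change, and 705 of 16695 genes (4.22%) were called, 467 (2.8%) positive and 238 (1.43%) negative. Without mouse 2 1074 (6.43%) were called, 726 (4.35%) positive and 348 (2.08%) negative, and 679 of the 705 were among them. The median strain difference of all genes was 0.15. With size factors 485 (2.91%) were called, 172 (1.03%) positive and 313 (1.87%) negative. The mean difference between tissues had the same sign in both strains at 494 of the 705 and opposite signs at 209. Values near 0 take part in this count of signs, which asks for no call in either strain. It was not made over all genes. GRCm38, named in the submitters' processing notes, is the C57BL/6J genome, and the part of sequence differences of BALB/cJ in these values was not tested.

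Mptx1 had the smallest adjusted p of all positive differences. It averaged 2832 ± 1325 TPM in C57BL/6J colon and 2.58 ± 1.0 TPM in C57BL/6J ileum (SD, n = 7), and 548 ± 142 TPM in BALB/cJ colon and 207 ± 31.2 TPM in BALB/cJ ileum (SD, n = 6). The gap between tissues was wider in C57BL/6J from both sides, with more in colon and less in ileum, and the difference between strains was 8.17 ± 0.27 (limma, adjusted p = 4.4e-10). Mptx2 ran opposite, at 0.866 ± 0.364 TPM in colon and 723 ± 428 TPM in ileum of C57BL/6J, against 44.1 ± 9.64 and 61.3 ± 26.4 TPM in colon and ileum of BALB/cJ, a difference of -7.71 ± 0.70 (adjusted p = 1.8e-05). The pair are paralogues, and how reads were divided between them was not tested.

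St3gal4, a sialyltransferase, averaged 230.0 ± 32.4 TPM in colon and 1286 ± 249 TPM in ileum of C57BL/6J, and 23.5 ± 4.44 and 8.82 ± 2.75 TPM in colon and ileum of BALB/cJ. It was lower in colon than ileum in C57BL/6J and higher in colon in BALB/cJ, a difference of -3.81 ± 0.22 (adjusted p = 1.7e-07). Lpo was higher in colon of both strains, at 13.7 ± 1.75 TPM in C57BL/6J colon and 336 ± 28.3 TPM in BALB/cJ colon, with at most 0.167 TPM in C57BL/6J ileum, and its change was smaller in C57BL/6J, a difference between strains of -4.49 ± 0.11. Nxpe5, of unknown role, had 1.52 ± 0.411 TPM in C57BL/6J colon and 136 ± 12.1 TPM in BALB/cJ colon (-5.45 ± 0.20), whereas its neighbour in name Nxpe4 had 48.5 ± 9.68 and 1.52 ± 0.144 TPM (3.36 ± 0.18). The carbonyl reductase Cbr3 (3.09 ± 0.19), the lactonase Pon3 (0.98 ± 0.08) and the flavin monooxygenase Fmo2 (1.97 ± 0.21) were on the positive side and the kallikrein Klk15 (-3.55 ± 0.26) on the negative side. Among defensins, Defa2 averaged 3032 ± 1557 TPM in C57BL/6J ileum and was listed at 0 throughout the BALB/cJ ileum. Defa21 averaged 6291 ± 3330.1 TPM in C57BL/6J ileum and 0.952 ± 1.65 TPM in BALB/cJ ileum, whereas Defa27 averaged 4.83 ± 2.62 TPM in C57BL/6J ileum and 3635 ± 618 TPM in BALB/cJ ileum. Their differences between strains were -10.89 ± 0.83, -10.91 ± 0.83 and 8.7 ± 0.63, and Defa24 was not called (-0.43 ± 0.55, adjusted p = 0.67).

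**Figure D5:**
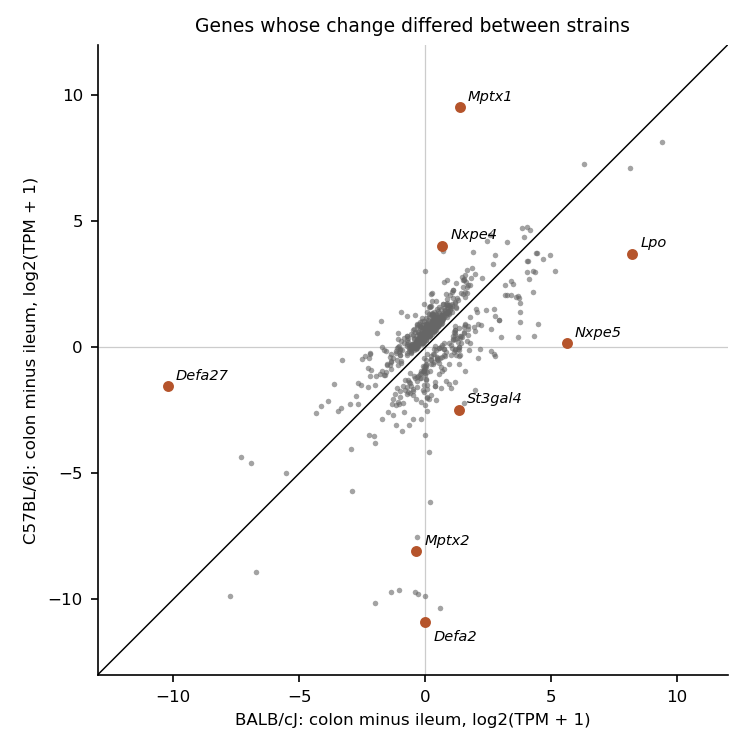
Change between tissues (colon minus ileum, log2(TPM + 1)) in BALB/cJ mice on the horizontal axis and in C57BL/6J mice on the vertical axis for the 705 genes whose change differed between strains. Each point is a gene, the line marks equal change, and named genes are labelled. Mptx1 lies far above the line and Mptx2 and Defa2 far below it.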

How the data were processed

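Levels were deposited as log2(TPM + 1), 1 table per tissue. Per the submitters' processing notes, transcripts were quantified with kallisto 0.44.0 and GRCm38 is the build. How transcripts were summed to genes and the strand setting are not given in the sources used here. Per the labels' protocols, RNA was extracted with a column kit and libraries were made from total RNA after depletion of ribosomal RNA. Of 34600 entries, 26 whose names had become dates were left out. The deposited log2 values were turned back to TPM.

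Genes with at least 1 TPM in 6 of 14 libraries were tested with limma 3.58.1 (R 4.3.3) on log2(TPM + 1), with a variance trend, the mouse as a block and Benjamini-Hochberg adjustment, 2-sided, and called at an adjusted p under 0.05. The strain difference was the strain by tissue term over 26 libraries. Same-mouse libraries correlated in their deviations at 0.12, -0.11, 0.10, 0.18, 0.16, 0.15 and 0.04 in mice 1 to 7, and the pairing rests on the labels' mouse numbers. Alternatives were the fit without the block, other pseudocounts, filters and scalings, and leaving out each mouse. On simulated data for colon against ileum over 15819 genes, 61.2% of changes of 0.5, 94% of changes of 1 and 97% of changes of 2 (log2) were called, and 6.67% of calls were false. For the strain difference over 16695 genes, 95.5% of changes of 2 were called and 7.28% of calls were false. Each simulation changed 200 genes and held no shift of scale, whereas 63% of genes were called between colon and ileum in the data. The rates describe the simulated setting and need not hold for the calls given here.

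The members, the 42 lists (814 genes, 713 tested) and the motif were chosen with earlier results of these data known. Listed genes outside the tables were not analysed here, and some named genes are not reported here. Named were the 12 called genes furthest apart per direction with a mean of 20 TPM or more and no overlap between tissues, with or without mouse 2. Predicted genes, pseudogenes, mitochondrial genes and receptor segments were left out of these. Also named were up to 3 called genes per list and direction by smallest adjusted p and members singled out by role. The rest were 6 genes per direction by the strain difference and the 3 most abundant members of each family. TPM keeps no depth, and 7 mice set the precision.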

Additional observations from a re-analysis of the deposited data

Results flagged for a closer look

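In the 7 differences of the mice (log2 colon minus ileum), 1 mouse stood apart from the other 6 for 50 of the 253 named genes tested, by Dixon's test of the gap to the nearest mouse over the whole range. Chance alone would set about 1 in 20 groups apart. Mouse 2 was the mouse apart for 45 of the 50. Its library labelled ileum goes against its label on regional markers, and the parts of its colon and ileum libraries in these differences were not separated. Its difference lay above those of the other 6 mice for Adipoq at 2.87, Asl at 1.25, Ass1 at 3.6, Car3 at 3.28, Cd14 at 2.78, Cdx1 at 2.18, Ciita at -0.87, Col5a1 at 2.68, Defa2 at -5.88, Defa20 at -5.27 and Defa32 at -4.31. The same held for Fabp6 at -1.21, Gbp8 at -1.34, Gsdmc2 at 4.67, Gsdmc3 at 5.14, Gsdmc4 at 5.29, Hist1h2bf at 1.19, Hist1h4m at 1.7, Hoxc6 at -0.074, Hoxc8 at -0.48, Igha at -0.59 and Igkc at 0.17. The same held for Itgam at 0.12, Klk1 at 6.13, Lyve1 at 2.12, Lyz1 at -5.39, Madcam1 at 0.12, Mptx2 at -4.63, Mrc1 at 2.25, Plk1 at 1.76, Pyy at 5.51, Rpl18 at 1.89 and Rpl41 at 1.21. The same held for Rps27 at 1.71, Slc5a8 at 2.42 and Zg16 at 1.65. It lay below them for Abcc2 at -7.54, Aqp8 at 6.01, Cck at -3.26, Gip at -6.58, Hnf4g at -4.13, Scarb1 at 0.22, Treh at -7.98, mt-Atp6 at -1.17 and mt-Co1 at -0.78.  Among these, Fabp6 differed by -8.89 to -7.95 in the other 6 mice, and the defensin Defa2 by -12.05 to -10.76. In other mice, Car1 at 7.51 in mouse 1, Fxyd4 at 3.61 in mouse 4, Hpgds at 0.027 in mouse 3, Slc26a3 at 3.04 in mouse 6 and Sult1a1 at 4.7 in mouse 3 stood apart.

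The change between tissues differed between strains for 42 of the genes named in the text (limma, adjusted p under 0.05 for the strain difference, C57BL/6J change minus BALB/cJ change). It was more positive in C57BL/6J for Defa27 (8.7), Mptx1 (8.17), Nxpe4 (3.36), Cbr3 (3.09), Fmo2 (1.97), Fxyd4 (1.9), Mcpt1 (1.27), Aim2 (1.27), Mcpt2 (1.24), Tlr4 (1.13), Gsdmc (1.06) and Pon3 (0.98). So it was for Tgm3 (0.97), Otc (0.94), Acsm3 (0.94), B3gnt6 (0.89), Btn1a1 (0.66), Cps1 (0.53), Nod2 (0.47), Foxd2 (0.47), Slc16a1 (0.44) and Acads (0.37). It was more negative in C57BL/6J for Defa21 (-10.91), Defa2 (-10.89), Defa32 (-8.59), Defa20 (-8.36), Mptx2 (-7.71), Nxpe5 (-5.45), Lpo (-4.49), St3gal4 (-3.81), Klk15 (-3.55) and Gsdmc3 (-2.14). Further negative differences were those of Muc4 (-1.63), Gsdmc2 (-1.36), Gal3st2 (-1.31), Sycn (-1.22), Muc1 (-1.18), Tfcp2l1 (-1.05), Wfdc2 (-1.0), Itgae (-0.72), Hoxd13 (-0.70) and Sc5d (-0.39). The median strain difference of all genes was 0.15, and small positive values are read beside it. Strain differences of single genes were followed through the alternatives only for the 6 genes per direction named by that difference.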

How the results depend on the processing

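Of the 265 differences of named genes, 232 kept their direction and their side of the threshold under every alternative in which they were tested. With median-of-ratios size factors 4333 genes were higher and 4340 lower, 1108 of the higher ones by 2-fold or more. Leaving out 1 mouse at a time gave 9052 to 10299 called genes, and within the strain comparison 1074 were called without mouse 2. The pairing comes from the labels' mouse numbers: without the mouse as a block 10408 genes were called, 10378 without mouse 2 and 890 for the strain difference, and of the named genes it cost Car3 and Hbb-bs their call and gave one to Hnf4a, Zg16 and mt-Co1. A pseudocount of 0.1 TPM gave 9905 calls, no filter 10678, a minimum of 5 TPM 8056, and totals without mitochondrial, defensin and antibody TPM 8821. The calls of Car3, Hba-a2, Il17rb, Mcm3, Rrm2, Slc5a8 and Tyms were lost when 1 of several single mice was left out, Slc5a8 without mouse 3 (0.72) and Hba-a2 without mouse 4 (0.31) or 5 (0.33). The cause was not tested.

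Among genes that were not called, the sign turned as follows. With size factors it was negative for Fos (-0.25), Mki67 (-0.067), Nxpe5 (-9.0e-04), Pigr (-0.18), Hist1h4m (-0.16) and Hist2h2aa1 (-0.30). With the other totals it was negative for Fos (-0.071), Pigr (-6.8e-06) and Hist2h2aa1 (-0.12). Leaving out 1 mouse at a time, values ran over both signs: Adipoq -0.012 to 0.58, Ctrc -0.46 to 0.032, Fos -0.052 to 0.16, Hist1h4m -0.11 to 0.26 and Hist2h2aa1 -0.14 to 0.14. Depth is unknown, so counting error of low genes could not be given.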
